A study of Mus musculus with 22 samples.

Results

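The comparison set 8 in vivo tissue pieces with high skeletal muscle signal against 6 in vivo pieces with low signal, out of 22 arrays in all. The 14 in vivo pieces were ranked by a muscle score, the mean log2 signal of Acta1, Myh4, Ckm and Atp2a1, with each gene read from its brightest probe, judged by the mean of all 22 arrays. The 8 highest are called muscle-rich and the 6 lowest muscle-poor, whatever their stretch label. Because measured values chose the groups, the contrast between them is a description and carries no test. The material was loose subcutaneous connective tissue of the trunk from male C57BL/6 mice of 19 to 24 g, with no other genotype or agent named. Stretch and shortening were compared within an animal, assigned at random, in 7 living animals (in vivo) and in tissue from 4 animals outside the body (ex vivo), and the study's title concerns muscle-related expression in the fibroblasts of this tissue under static stretch. Biotin-labelled cRNA from total RNA of whole tissue was hybridised, so every cell type in a piece contributed. In such bulk samples more cells of a type and more RNA per cell cannot be told apart.

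Under the skin of the mouse trunk lies the panniculus carnosus, a thin sheet of skeletal muscle next to the loose connective tissue. Skeletal muscle fibres contract when calcium released from the sarcoplasmic reticulum binds troponin on the thin filament and lets myosin pull on actin. Fast fibres and slow fibres build this machinery from separate genes for myosin heavy and light chains and for troponins, and fast fibres depend more on stored glycogen and phosphocreatine. The 4 genes of the score code for skeletal alpha-actin (Acta1), the fastest myosin heavy chain (Myh4), muscle creatine kinase (Ckm) and the calcium pump of fast fibres (Atp2a1).

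The muscle-rich pieces came from 5 animals and held 5 stretched and 3 shortened pieces, and the muscle-poor pieces came from 4 animals and held 2 stretched and 4 shortened. Animals 3, 4 and 7 gave both pieces to the muscle-rich group, and animals 1 and 2 gave both to the muscle-poor group. Only animals 5 and 6 gave 1 piece to each, in both cases with the stretched piece muscle-rich, so the other values also carry the difference between animals. The score ran from 10.3 to 13.3 in the muscle-rich pieces, with a median of 12.6, and from 5.19 to 7.25 in the muscle-poor pieces, with a median of 5.67. The lowest muscle-rich piece was in vivo stretched 6 at 10.29, and the highest muscle-poor piece was in vivo shortened 5 at 7.25. By the rule, all 4 genes lay higher in the muscle-rich group. Acta1 had medians of 13.3 and 6.47, Myh4 of 12.8 and 4.63, Ckm of 11.97 and 6.24, and Atp2a1 of 12.1 and 5.67.

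**Figure D1:**
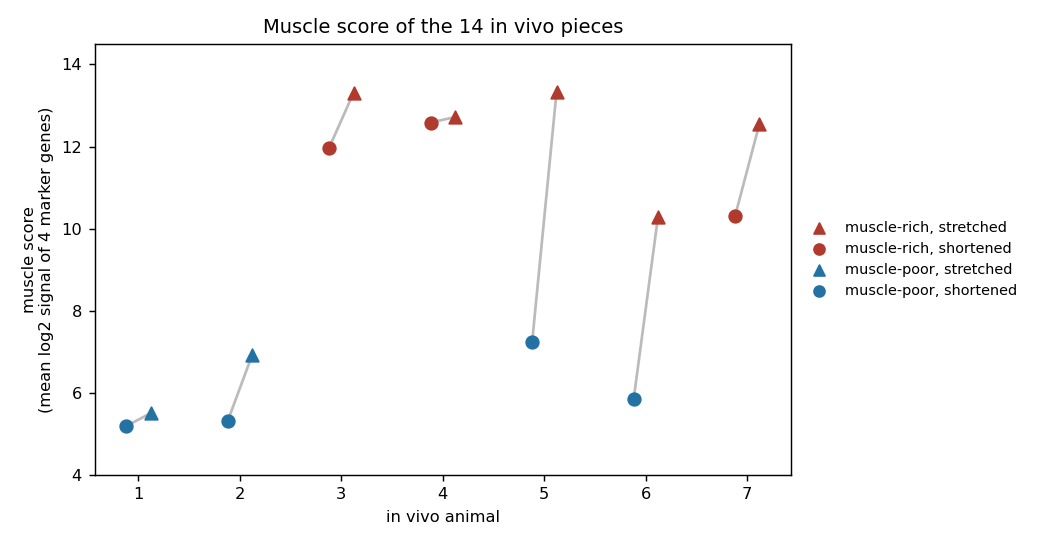
The muscle score (mean log2 signal of Acta1, Myh4, Ckm and Atp2a1) is plotted for each of the 14 in vivo pieces by animal, with circles for shortened and triangles for stretched pieces, red for muscle-rich, blue for muscle-poor, and a grey line joining the pieces of an animal. The 8 muscle-rich pieces lie between 10.3 and 13.3 and the 6 muscle-poor pieces between 5.19 and 7.25, and the lines of animals 5 and 6 cross from one group to the other.

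RNA quality moved with the groups. The log2 difference between the 3′ and the 5′ control probes of Gapdh, which grows as RNA is degraded, ran from 0.148 to 3.61 in the muscle-rich pieces, with a median of 2.31, and from 0.111 to 2.78 in the muscle-poor pieces, with a median of 0.242. All pieces of animals 1 to 3 had a difference of 0.111 to 0.272, and they make up 2 muscle-rich and 4 muscle-poor pieces. All pieces of animals 4 to 7 had 0.866 to 3.61, and they make up 6 muscle-rich and 2 muscle-poor pieces. The part of RNA quality in the differences between the groups was not tested, and neither was that of the stretch label. The median signal of an array was 7.29 to 7.42 in the muscle-rich and 7.29 to 7.40 in the muscle-poor group.

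Outside the 4 score genes, 12389 genes were measured. Of these, 81 were apart and higher in the muscle-rich pieces, or 0.654%, where apart means that the lowest muscle-rich piece lay above the highest muscle-poor piece and the means differed by at least 1 on the log2 scale. No gene, or 0%, was apart in the other direction. Without the size limit, 97 genes (0.783%) lay higher with no overlap and 16 genes (0.129%) lay lower with no overlap. The median difference over all 12389 genes was -0.02, and 45.5% were higher in the muscle-rich pieces. The differences of the 81 genes ran from 1.04 to 7.32 with a median of 2.88, and 18 of them reached 4. The count moves with where the line between the groups falls. With 7 pieces on each side, which puts in vivo stretched 6 among the low pieces, 29 genes were apart, 22 of them among the 81. No detection calls were used, so low readings among the muscle-poor pieces may be background, and a difference from them may understate the true one. Of the 81 genes 25 have several probes. For 17 of these every probe was higher in the muscle-rich pieces, while for 8 at least 1 probe was lower. For 19 of the 25, at least 1 probe showed a much smaller difference than the probe read here.

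Promoter sequences of 3 of the 81 genes are shown here because they match patterns of binding sites of muscle transcription factors. The patterns are the E-box CAGCTG, which MyoD and its relatives bind, and CTANNNNTAG for MEF2, in which N is any base. This MEF2 pattern is loose, so a match need not be a site that MEF2 binds. Each run spans 250 bases before to 50 after a transcription start in RefSeq (GRCm38.p6), on the gene's strand, 5′ to 3′, with the motif in capitals. Mylpf, the regulatory light chain of fast fibres, lies at chr7:127211358-127211657 on the + strand and has an E-box whose first base is at -51. Smpx, a small protein of striated muscle, lies at chrX:157698723-157699022 on the + strand and has a match to the MEF2 pattern at -126. Myoz2, a Z-disc protein that binds calcineurin, lies at chr3:123034938-123035237 on the - strand. It has an E-box at -12 and a match to the MEF2 pattern at -33. It is the 1 gene with both among the 65 of the 81 for which promoters were found.
Mylpf: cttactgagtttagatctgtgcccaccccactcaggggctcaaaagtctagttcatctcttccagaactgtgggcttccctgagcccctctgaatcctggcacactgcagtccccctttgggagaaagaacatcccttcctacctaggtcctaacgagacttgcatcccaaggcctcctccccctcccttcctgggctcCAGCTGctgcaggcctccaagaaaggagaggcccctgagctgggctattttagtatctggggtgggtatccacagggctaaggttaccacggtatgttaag
Smpx: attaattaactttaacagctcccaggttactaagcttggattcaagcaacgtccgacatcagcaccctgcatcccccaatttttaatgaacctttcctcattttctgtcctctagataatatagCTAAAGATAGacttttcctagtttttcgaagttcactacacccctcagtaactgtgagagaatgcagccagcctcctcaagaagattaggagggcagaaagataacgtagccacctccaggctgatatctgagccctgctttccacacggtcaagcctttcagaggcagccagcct
Myoz2: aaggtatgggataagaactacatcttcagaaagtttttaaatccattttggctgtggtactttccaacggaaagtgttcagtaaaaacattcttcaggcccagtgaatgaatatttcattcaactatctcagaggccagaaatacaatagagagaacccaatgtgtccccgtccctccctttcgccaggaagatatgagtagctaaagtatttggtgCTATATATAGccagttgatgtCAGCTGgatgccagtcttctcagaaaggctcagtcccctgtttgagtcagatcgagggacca
Promoters were found for 65 of the 81 genes, 91 promoters in all, since a gene can have several starts. Both motifs read the same on either strand, and they do not overlap in these 3 runs. The E-box was in 29 of the 91 promoters (31.9%), against 16.0% of the promoters of measured genes and 16.3% of all 32841 mouse promoters in the table. The MEF2 pattern was matched in 5 of the 91 (5.49%), against 3.21% and 3.69%. Windows of close starts overlap, so the same site can be counted more than once. That was so for the MEF2 match of Ldb3 and the E-box of Mb. A match says only that these letters lie in the window, and the shares are given with no test.

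Thin filament and thick filament genes of fast fibres showed the largest differences. All 12 measured genes of the fast fibre list were higher in the muscle-rich pieces, 10 of them apart, with a median difference of 4.60 beside -0.02 over all genes. Tnnc2, the calcium-binding troponin subunit of fast fibres, read 13.87, 13.79, 13.45, 13.29, 13.27, 12.50, 11.60 and 11.90 in the 8 muscle-rich pieces from the highest to the lowest score. In the 6 muscle-poor pieces it read 7.92, 7.14, 5.87, 4.29, 4.65 and 3.98 in the same order. The lowest muscle-rich value stood well above the highest muscle-poor value, the difference of means was 7.32, and the levels followed the score within each group with few exceptions. Mylpf, shown above, ran from 10.22 to 12.91 with a median of 12.04 in the muscle-rich pieces and from 4.47 to 6.66 with a median of 5.19 in the muscle-poor pieces. Its difference was 6.39. Tnni2, the inhibitory troponin subunit, and Tnnt3, the tropomyosin-binding subunit, differed by 6.19 and 5.89, with a range of 0.60 to 6.19 over the 3 probes of Tnni2. Myh1, a myosin heavy chain of fast fibres, differed by 6.84 on its brightest probe, but that probe may also bind related transcripts, and the gene's 3 probes ranged from 0.17 to 6.85. Myl1, the fast essential light chain, ran up to 13.26 in the muscle-rich pieces, with a median of 12.65, and more widely, from 5.65 to 9.45, in the muscle-poor pieces.

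**Figure D2:**
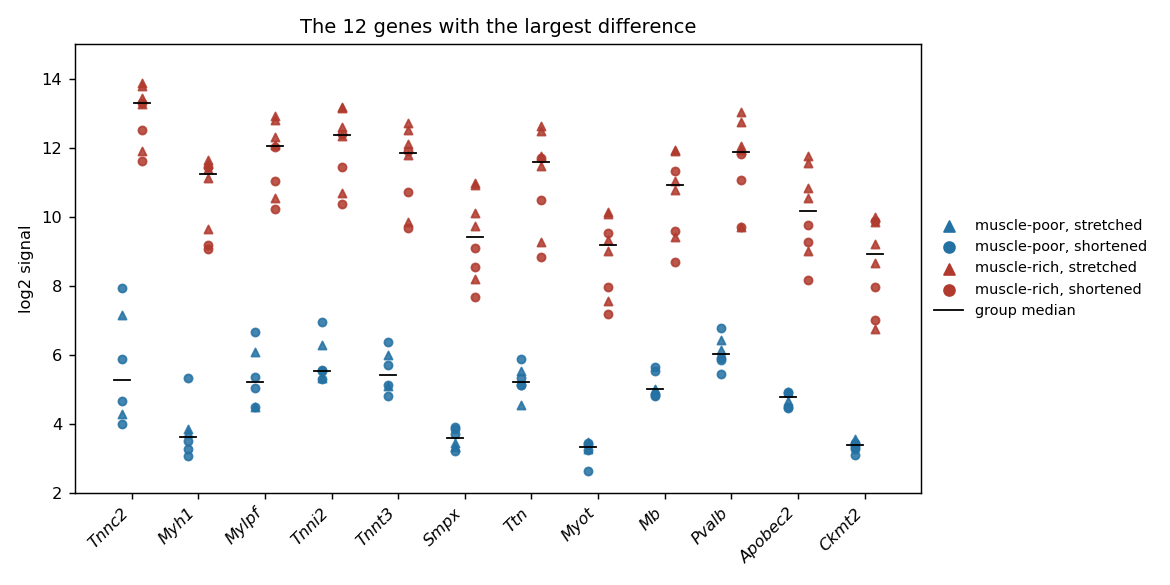
Log2 signal of the 12 genes with the largest difference outside the score genes, in each in vivo piece, with blue for the 6 muscle-poor and red for the 8 muscle-rich pieces, circles for shortened, triangles for stretched, and black lines at the group medians. In each gene all red points lie above all blue points, from Tnnc2 with a difference of 7.32 to Ckmt2 with 5.30.

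Most slow fibre genes did not share this pattern. The score holds the fast fibre genes Myh4 and Atp2a1, so the ranking itself favoured fast fibre genes over slow ones. In 7 pairs of a fast and a slow gene for the same kind of protein (Tnnc2 and Tnnc1, Tnni2 and Tnni1, Tnnt3 and Tnnt1, Mylpf and Myl2, Myl1 and Myl3, Myh1 and Myh7, Actn3 and Actn2), 6 of the 7 slow genes differed by less than 1. The slow troponins Tnnc1, Tnni1 and Tnnt1 differed by 0.26, 0.12 and 0.78, the slow light chains Myl2 and Myl3 by 0.90 and 0.10 and the slow heavy chain Myh7 by 0.25. The exception was Actn2, the alpha-actinin found in all fibres, at 3.50. Over the 10 measured genes of the slow fibre list the median was 0.19, with 7 higher and 1 apart. The mean of the list did not overlap, at 5.90 to 7.74 against 5.61 to 5.84, and without Actn2 it did overlap. The list's median was -0.063 without animal 4.

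A single piece, in vivo shortened 4, held nearly all the slow fibre signal. Myl2 read 9.60 in it and 3.92 to 5.05 in the other 7 muscle-rich pieces. Myh7 read 7.96 against 4.86 to 5.22, Tnnc1 7.76 against 5.25 to 5.65, and Tnnt1 8.47 against 5.41 to 6.40. The mean of the 9 slow list genes other than Actn2 was 7.61 in this piece, 5.68 to 5.90 in the other muscle-rich pieces and 5.65 to 5.97 in the muscle-poor pieces. Apart from this piece, the ranges of the groups overlapped. Myh2, the heavy chain of fast oxidative fibres, was also highest there, at 10.62 against 5.57 to 9.42 in the other muscle-rich pieces and 4.60 to 5.15 in the muscle-poor pieces. The stretched piece of the same animal, with nearly the same score (12.7 against 12.6), read 4.35 for Myl2 and 4.98 for Myh7.

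**Figure D3:**
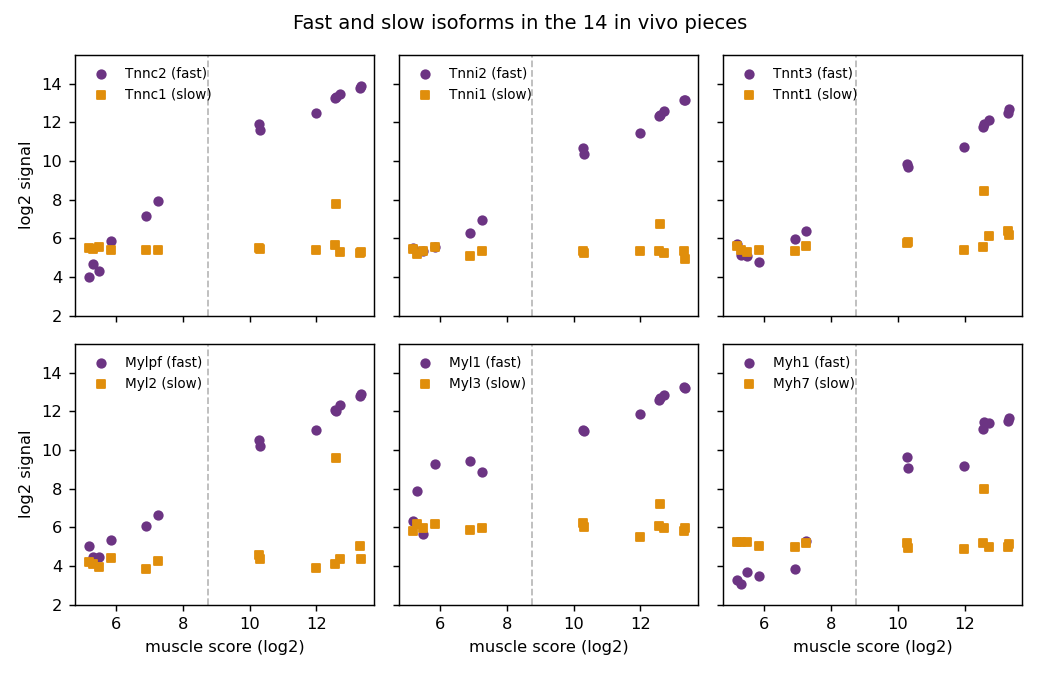
Log2 signal of 6 fast genes (purple circles) and their slow partners (orange squares) is plotted against the muscle score in the 14 in vivo pieces, with the dashed line between the groups. The fast genes climb with the score, while the slow genes stay level except in in vivo shortened 4, where Myl2 reached 9.60.

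The proteins that hold the sarcomere together were the next group. Of 23 measured genes of the titin, Z-disc and M-band list, 22 were higher and 16 apart, with a median difference of 2.66. Ttn, the giant spring that spans from Z-disc to M-band, ran from 8.82 to 12.61 with a median of 11.57 in the muscle-rich pieces and from 4.54 to 5.87 with a median of 5.21 in the muscle-poor pieces. Smpx, shown above, ran from 7.66 to 10.98 with a median of 9.41 against a highest muscle-poor value of 3.89, and Myot, a Z-disc protein that binds alpha-actinin, from 7.19 to 10.14 against 2.63 to 3.48. The differences were 5.82 for Ttn, 5.83 for Smpx and 5.61 for Myot. Other members apart included the titin cap Tcap at 4.38, Ldb3 at 4.07, the M-band protein Myom1 at 3.87 and Myoz1, the fast fibre relative of Myoz2, at 3.80. Myoz2 itself differed by 1.89 and was highest, at 8.11, in in vivo shortened 4.

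Genes of calcium release and membrane excitation differed less as a list, with large differences in a few members. Of 20 measured, 19 were higher and 7 apart, with a median of 0.58. Pvalb, the calcium buffer of fast fibres, ran from 9.69 to 13.03 against 5.45 to 6.76, a difference of 5.41. Trdn and Casq1, genes of the calcium release site, differed by 3.69 and 3.63 (Trdn's 6 probes ranged from -0.10 to 3.79). The voltage sensor Cacna1s differed by 2.29 and the release channel Ryr1 by 2.25. Pln, which restrains the calcium pump of slow fibres, differed by 0.11. Sln, a small inhibitor of the same kind of pump, differed by 3.13 and read 9.06, 9.18, 7.37, 5.61, 8.03, 5.77, 5.54 and 7.83 on its brighter probe in the muscle-rich pieces in score order and 3.51 to 4.75 in the muscle-poor pieces. The difference on its other probe was 0.016. The values of Sln did not follow the score within the muscle-rich group: the 3 low readings were the 3 shortened pieces. That pattern by label was noticed after the values were seen and was not tested.

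Energy supply genes of muscle were higher in all 29 measured members, 12 of them apart, with a median of 1.11. Mb, the oxygen store myoglobin, ran from 8.69 to 11.93 against 4.81 to 5.63, a difference of 5.45, while its other probe differed by 0.0099. Ckmt2, the mitochondrial creatine kinase of striated muscle, differed by 5.30, Pgam2, a glycolytic mutase, by 4.33, Pygm, which breaks down glycogen, by 4.21 and Eno3, the muscle enolase, by 3.93. The muscle forms of cytochrome oxidase subunits Cox8b, Cox6a2 and Cox7a1 differed by 3.00, 2.92 and 2.28. The respiratory chain subunits common to all tissues were higher in 30 of 30 genes with a median of only 0.31 and none apart, and citric acid cycle and fat oxidation genes in 21 of 21 with a median of 0.41 and none apart. Within animal 6 this lean was absent or slight, with medians of 0.02 (22 of 30 higher) and 0.00 (11 of 21 higher). Ppargc1a, a regulator of mitochondrial genes, ran from 5.22 to 6.67 against 4.13 to 5.49, so the groups overlapped.

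Muscle stress and turnover genes were higher in 13 of 14, with 5 apart and a median of 1.08, led by Asb5 at 3.82, Sh3bgr at 3.43 and Ddit4l at 2.89. In the dystrophin complex and membrane repair list 10 of 14 were higher and 1 was apart, Popdc3 at 1.47. Capn3, a muscle protease, differed by 1.57 and Sgca, the alpha-sarcoglycan, by 1.12, but their groups overlapped.

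Regulators of muscle formation and the nerve contact differed far less than the contractile genes. Of 18 myogenic regulators 11 were higher, with a median of 0.07, and Myf6, a factor of mature fibres, was the 1 gene apart. It read 7.74, 7.78, 6.63, 6.41, 6.16, 5.49, 4.93 and 5.33 in the muscle-rich pieces in score order and 3.82 to 4.28 in the muscle-poor pieces, a difference of 2.21. Myod1, which starts the muscle programme in myoblasts, ran from 4.55 to 5.86 against 4.30 to 4.98. Myog, a marker of differentiating myoblasts, had medians of 4.95 and 4.96, and Pax7, the satellite cell factor, medians of 3.81 and 3.86. In all 3 the groups overlapped. Of 11 genes of the nerve-muscle junction 6 were higher and none was apart, with a median of 0.03. The acetylcholine receptor subunits Chrna1 and Chrnb1 differed by 0.79 and 0.69 and the fetal subunit Chrng by -0.08. In the embryonic and cardiac contractile list 4 of 7 genes were higher and Actc1, the cardiac alpha-actin, was apart at 1.97.

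Of the 81 genes, 54 belonged to these lists and 27 to none. The largest difference outside the lists was that of Apobec2, a member of the cytidine deaminase family expressed in striated muscle, from 8.16 to 11.76 against 4.44 to 4.92, a difference of 5.39. A few others were picked from the 27 after their values were seen. Rpl3l, a muscle form of a ribosomal protein, differed by 2.53, and Eef1a2, the elongation factor form of muscle and neurons, by 2.02. The 13 measured ribosomal protein genes of general use had a median of -0.05, with 1 higher. Rbfox1, a splicing factor of muscle and neurons, differed by 2.78 and Nos1, the neuronal nitric oxide synthase that muscle also makes, by 1.06.

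Other cell types of the tissue are given by whole lists. Macrophage genes were lower in 20 of 20 with a median of -0.13, and Schwann cell and nerve genes in 12 of 12 with a median of -0.18. The nerve list was not steady within animals: its median was -0.64 in animal 5, with 0 of 12 higher, and 0.16 in animal 6, with 10 of 12 higher. Fibroblast genes were higher in 5 of 25 with a median of -0.13, and collagen and elastic matrix genes in 11 of 32 with a median of -0.04. Lists of antigen presentation, lymphocytes, mast cells and keratinocytes had medians from -0.09 to -0.05. None of these lists had a gene apart, and each list's mean overlapped between the groups. Among fibroblast genes Pi16, a marker of adventitial fibroblasts, ran from 11.75 to 13.42 against 12.28 to 13.32, and Smpd3, with the largest difference of the list, from 7.25 to 10.44 against 8.18 to 10.59. Col1a1, the main chain of collagen I, ran from 12.45 to 13.46 against 11.99 to 13.32, so this defining marker of the labelled tissue was high in both groups and the groups overlapped. Among macrophage genes Cd68, a lysosomal protein, ran from 10.50 to 11.19 against 10.82 to 11.23.

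Blood vessel and fat lists leaned the other way. Endothelial genes were higher in 15 of 19 with a median of 0.54, and pericyte genes in 8 of 8 with a median of 0.45, with no gene apart. The mean of the endothelial list ran from 8.35 to 9.11 against 7.57 to 8.72, and that of the pericyte list from 8.13 to 8.87 against 7.53 to 8.53. Cldn5, of endothelial tight junctions, differed by 1.01, and Pecam1, of endothelial contacts, by 0.46. Smooth muscle genes were higher in 11 of 14 with a median of 0.22, and Acta2, smooth muscle actin, differed by 0.51 with overlapping groups. The adipocyte list was higher in 17 of 19 with a median of 0.98, and its mean ran from 10.1 to 11.2 against 8.20 to 10.9. The low end of the muscle-poor range was animal 1. Lep, the fat hormone leptin, read 5.46 and 6.20 in both pieces of animal 1, and 8.43 to 10.63 in the other 4 muscle-poor and 8.84 to 10.48 in the 8 muscle-rich pieces. Adipoq, which codes for adiponectin, read 10.93 and 11.58 in animal 1 and at least 12.76 in every other in vivo piece. Among the pieces of animals 4 to 7 the adipocyte median was 0.15, and within animal 6 it was 0.06. The part of vessel and fat content in the muscle differences was not tested. Ucp1, the brown fat uncoupler, had medians of 4.32 and 4.61. Immediate early genes such as Fos and Fosb were higher in 14 of 19 with a median of 0.15, but within animal 5 their median was -0.33. Zic1, a factor that marks position along the trunk and is tied to dorsal tissue, differed by -1.03, by -3.12 within animal 5 and by -1.85 within animal 6, and its ranges of 5.74 to 8.82 and 6.22 to 9.48 overlapped.

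**Figure D4:**
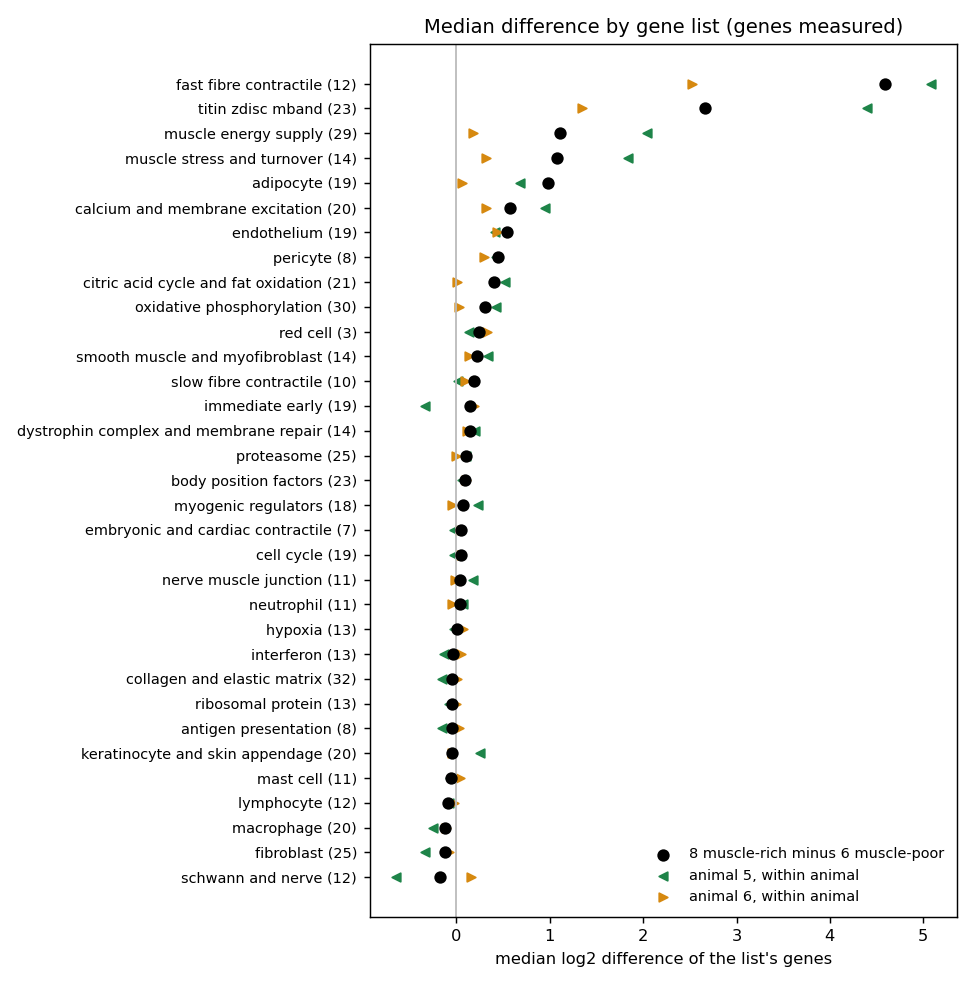
Median log2 difference of the genes of each of 33 lists, with the number of genes measured: black points for the 8 muscle-rich minus the 6 muscle-poor pieces, green triangles for the difference within animal 5 and orange triangles for that within animal 6. The fast fibre list stands highest at 4.60, followed by titin, Z-disc and M-band genes at 2.66, while the black points of fibroblasts (-0.13), macrophages (-0.13) and nerve (-0.18) lie just below 0. Within animals the nerve list lies at -0.64 in animal 5 and 0.16 in animal 6.

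The 16 genes that lay lower without overlap had small differences, from -0.11 to -0.49. Ighg3, an immunoglobulin constant region, had the largest, and Map2k1, a kinase of the growth factor cascade, the smallest, at -0.11. Msl3l2 differed by -0.33, from 7.47 to 7.81 against 7.93 to 8.20.

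Animals 5 and 6 allow the comparison within an animal, where the difference between animals drops out. These 4 pieces also helped to choose the 81 genes, which fixes the direction and in part the size, so the counts are a description from which nothing is read. In animal 5 all 81 differed by at least 1, with a median of 4.07, beside 1.49% of all genes higher by at least 1. In animal 6, 47 did, with a median of 1.54, beside 0.404% of all genes. The difference in the score was 6.08 in animal 5 and 4.45 in animal 6. RNA quality did not fall to the same side in both animals: the Gapdh difference was 1.88 in the muscle-rich and 2.78 in the muscle-poor piece of animal 5, and 2.74 and 2.25 in animal 6. Among the pieces of animals 1 to 3 all 81 genes reached 1, with a median of 3.19. Among those of animals 4 to 7 the median was 2.60 and 77 reached 1. Neither is a comparison within an animal. These pieces also helped to choose the 81 genes, which fixed the direction, so nothing is read from these counts either. In the first set both muscle-rich pieces came from animal 3 and all muscle-poor pieces from animals 1 and 2.

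The genes whose levels ran most like the score over the 14 pieces were Tnni2 (Pearson r 0.996), Mylpf (0.995), Pvalb (0.994), Tnnt3 (0.993) and Ttn (0.992). Since the pieces form 2 clusters, such values mainly restate the gap between groups. Within the 8 muscle-rich pieces r was 0.981 for Tnni2, 0.966 for Mylpf, 0.990 for Pvalb, 0.980 for Tnnt3 and 0.988 for Ttn. Within the 6 muscle-poor pieces it was 0.949, 0.936, 0.866, 0.741 and 0.805. The values share the arrays with the score genes and are given as likeness, with no p. The most opposed was Msl3l2 at -0.922 over the 14 pieces, -0.702 within the muscle-rich and -0.760 within the muscle-poor group. Map2k1, Erbb2, Mst1r and Man1a2 followed. Map2k1 had -0.888 over the 14 pieces but -0.069 within the muscle-rich and 0.024 within the muscle-poor group. Within the same groups Erbb2 had -0.849 and -0.789, Mst1r -0.541 and -0.915, and Man1a2 -0.682 and -0.536.

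The 8 ex vivo pieces did not enter the choice of groups. Their animal numbers are replicate numbers from the labels. A number shared with an in vivo animal is not taken to mean the same mouse. Here the score itself was higher in the stretched piece in 3 of 4 animals, by 2.78 ± 3.42 (SD, n = 4), and in vivo in 7 of 7, by 2.31 ± 2.20 (SD, n = 7), with no p given because the genes were chosen with these results known. Tnnc2 read 6.60, 5.59, 5.87 and 7.18 in the shortened pieces of animals 1 to 4 and 5.24, 5.61, 11.70 and 12.73 in the stretched pieces. Ttn read 3.91, 3.92, 3.91 and 4.62 in the shortened and 4.00, 4.25, 9.51 and 10.88 in the stretched pieces. The stretched pieces of animals 3 and 4 were high, and all 6 other ex vivo pieces were low. The 81 genes had median differences, stretched minus shortened, of 0.06, -0.03, 1.91 and 3.52 in animals 1 to 4. In animal 3, 60 of the 81 reached 1, beside 0.969% of all genes, and in animal 4, 75 did, beside 1.35%. The same 60 genes reached 1 in both. In animals 1 and 2, 1 gene each did. The Gapdh difference was at most 0.187 in both pieces of animals 3 and 4. Of the slow fibre list, Actn2 went from 3.93 in the shortened to 6.36 in the stretched piece of animal 3 and from 4.06 to 8.14 in animal 4. The mean of the other 9 genes of that list lay between 5.62 and 5.80 in all 8 pieces.

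**Figure D5:**
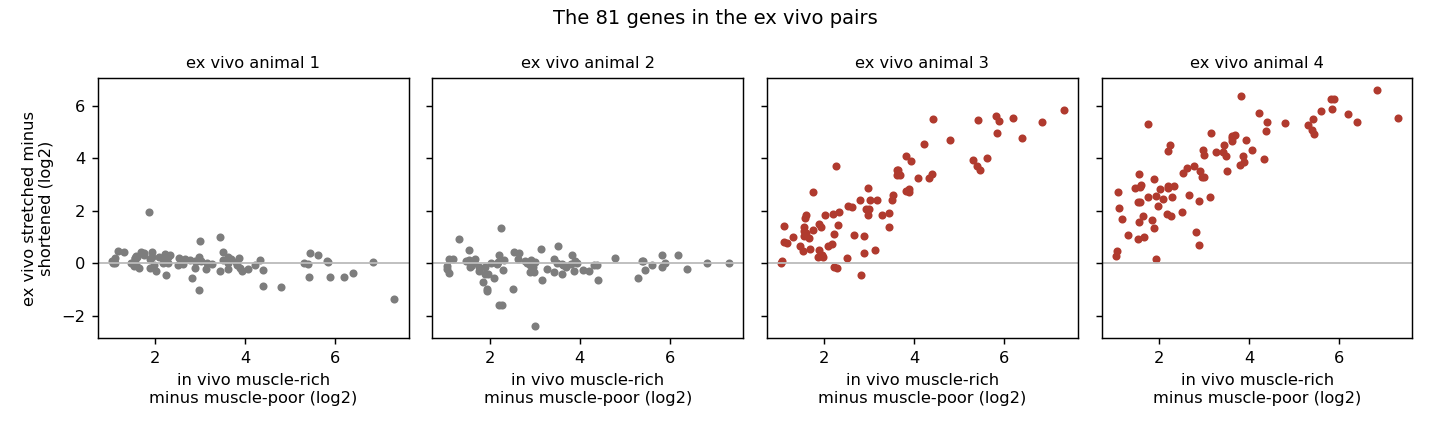
Each of 4 panels plots, for 1 ex vivo animal, the stretched minus shortened log2 difference of the 81 genes against their in vivo muscle-rich minus muscle-poor difference, grey for animals 1 and 2 and red for animals 3 and 4. Points in animals 1 and 2 lie around 0 (medians 0.06 and -0.03), and in animals 3 and 4 they climb with the in vivo difference (medians 1.91 and 3.52).

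Tested across the 4 ex vivo animals with limma and the animal as a block, no probe of 22626 passed a Benjamini-Hochberg adjusted p of 0.05, or 0%, and the smallest adjusted p was 0.352. At an unadjusted p under 0.05 there were 2508 probes, of which 1184, or 5.23% of all probes, were higher in stretched pieces. Of the 81 genes 34 were in that class and higher, and 0 lower. Ttn had a fitted difference of 3.07 with a standard error of 1.12 and a limma adjusted p of 0.414. It was higher in 4 of 4 pairs, by 0.09, 0.33, 5.60 and 6.27. Myf6 differed by 1.14 with a standard error of 0.43 and a limma adjusted p of 0.422, higher in 4 of 4. No difference by stretch passed the test ex vivo.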

How the data were processed

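Per the submitters' processing notes, the authors processed the array intensities with RMA in the affy package (versions not given in the sources used here), and the deposited table holds log2 values from 1.89 to 14.4. In vivo and ex vivo arrays have different medians, and levels were not compared across them. Of 22690 probes, 64 controls were left out, 20380 have 1 gene symbol, 691 several and 1555 none. A gene was read from its brightest probe, judged by the mean of all arrays, giving 12393 genes with the 4 score genes. Probes hold no read depth; the number of arrays limits the precision.

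The members and the 33 gene lists were chosen with earlier results of these data known. Named genes are the 12 largest differences in each direction among genes apart, the 3 largest of each list, a fixed set of cell type and fibre markers, and the 5 genes most and least like the score. The muscle-rich minus muscle-poor contrast has no test. Ex vivo stretched minus shortened was tested with limma 3.58.1 in R 4.3.3 (trend, Benjamini-Hochberg over 22626 probes), with the animal as a block because the series' design is within animal; the labels' numbers pair the pieces. A planned sign-flip p for the score is not given, since its genes were chosen with results known. The limma script was tested on simulated data. Tables were handled in Python 3.11.15 with pandas 2.3.3. Alternatives changed the number of samples in each group, probe choice, centring, normalization, filters and animals left out. That the pieces of different animals are separate samples is taken from the labels.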

Additional observations from a re-analysis of the deposited data

Results flagged for a closer look

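Of 312 gene or list values examined within the groups, 18 had a sample far from the others of its group. That is close to the share that chance flags, about 1 in 20, so a single flag carries little weight. In vivo shortened 4 was the highest muscle-rich piece for Myl2 at 9.60, Tnnt1 at 8.47, Myh7 at 7.96, Tnnc1 at 7.76 and the mean of the slow fibre list at 7.74, each well above the other 7 pieces.

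In vivo shortened 3 was the lowest muscle-rich piece for Col15a1, a basement membrane collagen, at 8.37, Psmd2 at 10.34, Pln at 5.22 and Pax7 at 3.47, and the highest for Pi16 at 13.42. In vivo stretched 3 was the lowest for Has2, a hyaluronan synthase, at 7.73 and Rpl8 at 12.47, and the highest for Gata2 at 8.54. In vivo stretched 5 was the highest for the epidermal genes Lor at 7.13 and Krt14 at 5.79 and the lowest for Mki67, a gene of dividing cells, at 6.44. Among muscle-poor pieces, in vivo shortened 5, which has the highest score of the 6, was the highest for Myh1 at 5.31, and in vivo shortened 2 was the lowest for Myot at 2.63.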

How the results depend on the processing

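The 81 genes apart became 29 with 7 pieces on each side and 48 within animals 5 and 6 (47 of them among the 81). With only the pieces of animals 1 to 3, a contrast between animals, the count was 132. That setting was added after the data were seen. Leaving out 1 animal in turn gave 81 to 95, and other probe rules, centring and normalization gave 74 to 84. With 6 pieces on each side there were 107, and genes with a mean of at least 6 gave 65. Fewer pieces make the rule of no overlap easier to meet. The counts with an animal left out, with 6 pieces on each side or with animals 1 to 3 only could therefore hardly fall. They do not show that the 81 genes are steady. Genes apart and lower numbered 1 among animals 4 to 7 and 5 among animals 1 to 3. They numbered 2 within animals 5 and 6 and 0 to 1 with an animal left out. Of 33 lists, 6 had means apart, against 0 with 7 pieces on each side and 12 among animals 1 to 3. The slow fibre median turned to -0.14 among animals 1 to 3. With an animal left out it ran from -0.063 (without animal 4) to 0.314. Medians near 0 of the antigen presentation, cell cycle, collagen, embryonic and cardiac, hypoxia, immediate early, keratinocyte, mast cell, myogenic, nerve-muscle junction, neutrophil and proteasome lists also changed sign in at least 1 setting, at -0.126 to 0.152. Of 594 list medians over all settings 574 moved by less than the spread, and of 2183 values of named genes 2130 did. Ex vivo, limma called 0 probes with the replicate block and 0 with no replicate block (2173 at an unadjusted p under 0.05), and 661 when all 22 samples shared 1 fit, a fit that takes its spread from the in vivo pieces too. The number of animals limits the ex vivo test, and dim probes such as those of Pax7 have no detection call here.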

Other observations

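Lists of general cell states differed little between the groups. Proteasome genes were higher in 21 of 25 in the muscle-rich pieces, with a median difference of 0.10, and none was apart. Cell cycle genes had a median of 0.05, hypoxia genes of 0.00 and interferon genes of -0.03. Bnip3 and Egln3, which respond to low oxygen, differed by 0.80 and 0.75, and Ddit4, of the same list, by -0.51, each with overlapping groups.

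Neutrophil genes had a median of 0.03, led by the granule protease Prtn3 at 1.33. The 3 measured red cell genes had a median of 0.24, with the haem synthesis enzyme Alas2 at 1.28. Transcription factors of body position were higher in 14 of 23 and lower in 9, with a median of 0.09. Hoxb5 differed by 0.69 and Pax1 by 0.64, while Zic1, described above, had the lower mean in the muscle-rich pieces. No gene of these lists was apart.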
